A study of Rattus norvegicus with 18 samples.

Results

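Sphingolipid genes were followed in brain cortex of male Crl:CD(SD)BR rats after occlusion of the middle cerebral artery (MCAO), a model of ischemic stroke. The set held 10 genes read by 14 probes, out of 12422 named genes with a tested probe and 41012 probes on the array. Degs2 was chosen by its signal, which was much lower in saline-treated ischemic than in sham cortex at both times in an earlier look at these same arrays, and Degs1, Sptlc1, Sptlc2, Sphk1, Sphk2, Asah1, Smpd1, S1pr1 and Ugcg were added as the core enzymes and a receptor of the same pathway. Every probe whose name or transcript accession was one of these genes was taken.

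Each RNA sample was hybridized to its own 1-colour array, and the 18 arrays formed 6 groups of 3: ischemic rats given erythropoietin (EPO, the red cell hormone, also studied as a protector of neurons), ischemic rats given saline, and sham-operated rats, each at 6 h and at 2 h after surgery. Nothing in the labels says that replicates were separate animals, so p-values measure the spread between these samples only. The labels give no treatment for the sham rats, so ischemic and sham rats differed in the injection as well as in the occlusion, and they give no dose or time of EPO. Signal is given below as log2 intensity after subtracting the array's 75th percentile, so that 0 is the level of a fairly bright probe and negative values are dimmer. Differences are log2 values ± the standard error of a limma model over all 18 arrays, a difference was called at an adjusted p under 0.05 over all 28625 probes tested, and group values are means ± SD (n = 3 arrays). Precision is set by having 3 arrays a group, with a standard error of 0.13 for the median probe. Levels of different probes cannot be compared, so each probe's differences are between groups.

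Arrays differed in quality. The share of probes well above background ranged between 61.5% and 80.6%, spike-in slopes ran from 0.79 to 0.94, and 6 arrays lay above 0.9. Leaving out these 6 steep arrays leaves 1 saline array at 6 h, which is then assumed to vary like the other groups, so a call lost in that analysis need not mean a smaller difference. The arrays were on 5 slides scanned on 2 days, the last slide alone on the second. Over all 33 alternative analyses, which included leaving out these 6 arrays, the Degs2 difference with saline ran from -1.62 to -1.22 at 6 h and from -0.78 to -0.60 at 2 h.

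Sphingolipids are made from serine and palmitoyl-CoA by serine palmitoyltransferase (subunits encoded by Sptlc1 and Sptlc2) and ceramide synthases, after which a desaturase encoded by Degs1 puts the double bond into dihydroceramide and so makes ceramide. The enzyme encoded by Degs2 can do the same or instead add a hydroxyl group, which gives phytoceramide, and it is best known from skin, gut and kidney. Ceramide feeds sphingomyelin, in which brain membranes and myelin are rich, and the glycolipids that start with Ugcg. Acid ceramidase (Asah1) and acid sphingomyelinase (Smpd1) break these lipids down in lysosomes, and the kinases encoded by Sphk1 and Sphk2 turn the freed sphingosine into sphingosine 1-phosphate, the ligand of S1pr1, a receptor on endothelium, lymphocytes and glia.

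The promoters of both desaturase genes and of Sphk1 are shown because Degs2 and Sphk1 were the members with large differences and Degs1 is the close relative of Degs2 that differed little. Each run covers 250 bases before and 50 bases from the annotated start, 5′ to 3′ on the gene's strand, from RefSeq (GRCr8, the build of all positions here), and 8 of the 10 members matched that table. Degs2 lies on the minus strand (promoter chr6:133377628-133377927), Degs1 on the minus strand (chr13:96485253-96485552) and Sphk1 on the plus strand (chr10:102257163-102257462). The array's own probe sequences were not used here. Capitals mark matches, on either strand, to any of the motifs searched. These were the GC box, spelled GGGCGG, both cores of the hypoxia response element, spelled ACGTG and, in the other form, GCGTG, the AP-1 site TGACTCA, the cyclic AMP response element TGACGTCA and the TATA box, TATAAA. The E-box CACGTG was searched too and always contains the first hypoxia core.
Degs2: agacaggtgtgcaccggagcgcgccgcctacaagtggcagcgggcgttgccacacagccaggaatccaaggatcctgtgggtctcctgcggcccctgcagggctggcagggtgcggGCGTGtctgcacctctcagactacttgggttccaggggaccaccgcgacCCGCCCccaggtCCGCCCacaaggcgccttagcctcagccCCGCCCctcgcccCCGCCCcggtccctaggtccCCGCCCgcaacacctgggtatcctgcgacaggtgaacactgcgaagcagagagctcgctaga
Degs1: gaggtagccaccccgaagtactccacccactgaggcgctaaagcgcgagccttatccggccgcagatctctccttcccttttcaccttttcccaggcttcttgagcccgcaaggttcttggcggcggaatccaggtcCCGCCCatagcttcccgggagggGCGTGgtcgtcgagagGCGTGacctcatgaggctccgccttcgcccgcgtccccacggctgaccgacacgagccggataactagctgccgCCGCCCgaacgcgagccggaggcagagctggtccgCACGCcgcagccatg
Sphk1: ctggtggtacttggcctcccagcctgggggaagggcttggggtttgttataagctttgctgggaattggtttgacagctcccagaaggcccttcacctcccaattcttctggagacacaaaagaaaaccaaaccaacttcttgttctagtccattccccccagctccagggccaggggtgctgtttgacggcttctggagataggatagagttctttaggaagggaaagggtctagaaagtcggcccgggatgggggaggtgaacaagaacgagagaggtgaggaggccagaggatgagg

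The Degs2 window held 5 GC boxes, at positions -85, -73, -45, -32 and -12 from the start, and 1 GCGTG at -134. Of all 33469 promoter windows of this length, 33.1% held a GC box and 2.34% held at least 5. The Degs1 window held 2 GC boxes and 3 GCGTG, a sequence found in 29.7% of all windows. None of the listed motifs was in the Sphk1 window. ACGTG was found in 19.3% of all windows, CACGTG in 6.42%, TGACTCA in 4.63%, TGACGTCA in 1.83% and TATAAA in 14.2%, and none of these was in the 3 windows shown. The windows also differed in base composition: G and C made up 69.0% of the Degs2 window, 66.3% of that of Degs1 and 54.0% of that of Sphk1, with 23, 32 and 4 CpG pairs, against medians of 51.7% and 7 pairs over all windows. These matches describe letters only.

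Degs2 was lower in ischemic than in sham cortex at both times, with or without EPO, and most so at 6 h. Its single probe (A_44_P375502, gene at chr6:133360449-133377677) was well above background on all 18 arrays. At 6 h the signal was -2.57, -2.71 and -2.90 in ischemic rats given EPO, -2.59, -2.51 and -2.61 in ischemic rats given saline, and -0.99, -1.02 and -0.93 in sham rats. All 6 ischemic arrays lay well below all 3 sham arrays. At 2 h the signal was -2.08, -2.06 and -1.78 with EPO, -2.17, -1.99 and -1.86 with saline, and -1.44, -1.19 and -1.25 in sham rats, again without overlap between ischemic and sham arrays. Such separation from sham, in either direction, was common. At 6 h 8870 of 28625 tested probes had it with EPO and 9253 with saline, and at 2 h 5832 with EPO and 4506 with saline.

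**Figure D1:**
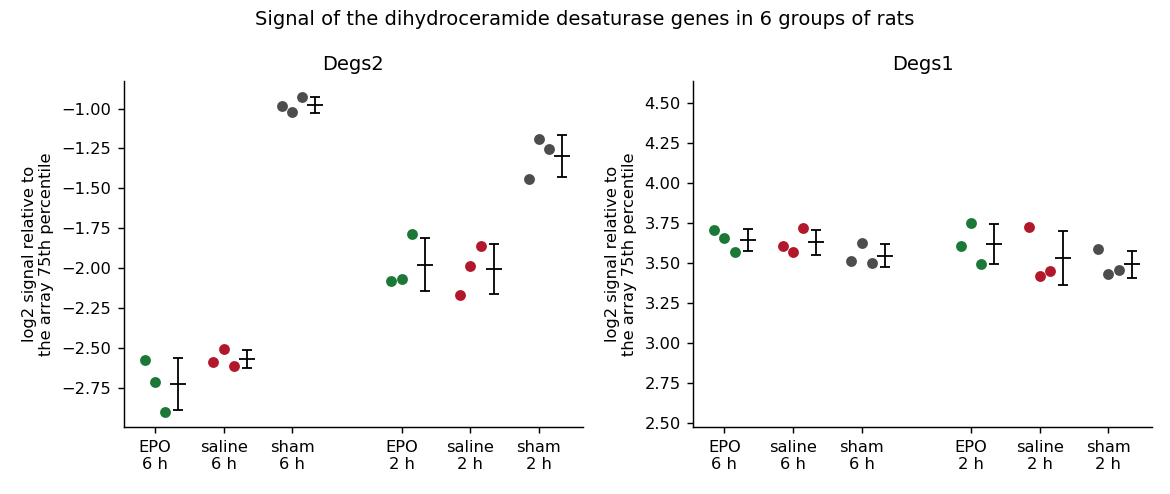
Log2 signal of Degs2 (left) and Degs1 (right) relative to the array's 75th percentile, for ischemic rats given EPO, ischemic rats given saline and sham rats at 6 h and at 2 h. Points are arrays, and bars beside them are the mean ± SD of 3; both vertical axes span the same range, and Degs2 is lower in every ischemic group while Degs1 stays between 3.42 and 3.75 on all arrays.

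At 6 h Degs2 differed from sham by -1.75 ± 0.11 with EPO (3.36-fold lower) and by -1.59 ± 0.11 with saline (3.01-fold lower). At 2 h the differences were -0.68 ± 0.11 with EPO (1.60-fold lower) and -0.71 ± 0.11 with saline (1.63-fold lower). The saline differences are the values by which the gene was chosen and the EPO differences share their sham arrays, so no test is given for either. The shares of all tested probes called in these contrasts were 16.1% with EPO at 6 h, 11.1% with saline at 6 h, 1.33% with EPO at 2 h and 1.24% with saline at 2 h, in either direction. The median of all tested probes was -0.13 with saline at 6 h, and relative to it Degs2 stood at -1.46. Between single arrays of the same slide, on the slides that held both groups, the difference with EPO was -1.69 and -1.91 at 6 h and -0.53 at 2 h, and that with saline was -1.48 and -1.62 at 6 h and -0.72, -0.79 and -0.61 at 2 h.

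In order of level the groups ran from EPO at 6 h (-2.73 ± 0.16) and saline at 6 h (-2.57 ± 0.06) through saline at 2 h (-2.005 ± 0.16) and EPO at 2 h (-1.98 ± 0.17) to sham at 2 h (-1.30 ± 0.13) and sham at 6 h (-0.98 ± 0.05). The neighbours EPO and saline overlapped at each time. Between the 2 h ischemic groups and the sham groups, and between the 2 h and the 6 h ischemic groups, no array overlapped. The sham arrays at 6 h all lay above those at 2 h. Of 28625 tested probes, 7566 were without overlap between the times with EPO, 7615 with saline and 5485 in sham rats.

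Degs2 fell with time in EPO-treated ischemia: the difference of 6 h from 2 h was -0.75 ± 0.11 (1.68-fold lower, adjusted p = 0.000748), a comparison whose arrays were not among those of ischemia with saline against sham, although its standard error draws on all 18 arrays. Of all tested probes, 11.6% were called there in either direction. The call was lost when only the 6 arrays of this comparison were fitted (adjusted p = 0.0886) and on the authors' deposited values without scaling between arrays (-0.66, adjusted p = 0.0574). In saline-treated ischemia the same difference was -0.56 ± 0.11 (1.48-fold lower), given without a test because it holds the arrays that chose the gene.

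In sham rats Degs2 went the other way, 0.32 ± 0.11 higher at 6 h than at 2 h. It is given without a test because the sham arrays entered the choice of the gene. Of all probes, 0.482% were called between the times in sham rats. The change of the saline difference with time, 6 h minus 2 h, was -0.88 ± 0.15 and includes this shift of the sham groups. It was built from the values that chose the gene and is a description, and 1.43% of all probes were called for such a change of the ischemic difference with time.

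EPO against saline in ischemic rats left Degs2 without a called difference. It was -0.16 ± 0.11 at 6 h (95% interval -0.39 to 0.07, adjusted p = 0.778) and 0.03 ± 0.11 at 2 h (-0.20 to 0.26, adjusted p = 1). Over the whole array 0 probes were called at either time (0%), while 1184 at 6 h and 381 at 2 h had an unadjusted p under 0.05 in limma. On slides with both groups the difference was 0.02, -0.20 and -0.28 at 6 h and 0.08 at 2 h. The saline arrays of these contrasts also entered the choice of Degs2.

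Cell type markers differed between the same groups. The counts called below stand beside shares over all probes of 16.1% with EPO and 11.1% with saline against sham at 6 h. Between 6 h and 2 h with EPO the share was 11.6%. Of 12422 named genes by brightest probe, 1022 rose and 1341 fell with EPO at 6 h against sham. With saline 766 rose and 845 fell, and between 6 h and 2 h with EPO 717 rose and 1051 fell. All 6 neuron markers were above background on all arrays, and their summed log2 level at 6 h was 6.63 to 6.80 with EPO, 6.74 to 6.78 with saline and 6.92 to 6.99 in sham rats, with 3 of 6 called lower with EPO and 2 of 6 with saline. Of 6 endothelial markers 3 fell with both treatments at 6 h (Slco1a4, Tek and Cldn5), and the sum was 3.19 to 3.23 with EPO, 3.06 to 3.23 with saline and 3.49 to 3.798 in sham rats. At 2 h 0 of 52 markers were called, and the endothelial sum was 2.98 to 3.40 with EPO, 3.12 to 3.30 with saline and 3.29 to 3.52 in sham rats. The oligodendrocyte sum at 2 h was 7.90 to 8.10 with EPO and 8.0001 to 8.07 with saline, above the 7.85 to 7.88 of sham rats. Of 5 neutrophil markers 3 were called higher with EPO and 2 with saline at 6 h (sums -0.30 to 1.08 with EPO, 0.16 to 0.50 with saline and -1.45 to -0.69 in sham rats). At 2 h 0 were called, with sums of -1.59 to -0.55 with EPO, -1.30 to -0.57 with saline and -1.41 to -0.43 in sham rats. Of 5 striatal markers 4 were higher with EPO and 2 with saline at 6 h (sums 4.29 to 4.58 with EPO, 4.09 to 4.35 with saline and 3.31 to 3.83 in sham rats), and at 2 h, with 0 called, the sums were 3.84 to 4.19 with EPO, 3.61 to 4.15 with saline and 2.93 to 3.73 in sham rats. The sum of 4 red cell markers at 6 h was 1.58 to 1.73 with EPO, above the 0.71 to 1.26 with saline and the 0.78 to 1.30 in sham rats, and 0 were called. The sum of 4 choroid plexus markers spread widely within every group. At 6 h it was -0.20 to 3.01 with EPO, -0.70 to 4.33 with saline and -0.84 to 4.10 in sham rats, and 1.17 to 5.22 in sham rats at 2 h. The sum of 4 meningeal markers at 6 h was 2.81 to 2.97 with EPO, 2.67 to 2.84 with saline and 2.96 to 3.23 in sham rats. Between 6 h and 2 h with EPO, where Degs2 was called, 4 of 6 microglial markers were lower, 2 of 6 endothelial markers were higher and 1 lower, and 2 of 5 neutrophil markers were higher. The microglial sum was lower at 6 h in every group, sham included. With EPO it was 3.24 to 3.45 at 6 h and 3.83 to 3.90 at 2 h. With saline it was 3.32 to 3.52 and 3.79 to 4.04, and in sham rats 3.47 to 3.63 and 3.79 to 3.81. The astrocyte sum at 6 h was 6.15 to 6.39 with EPO, 6.28 to 6.34 with saline and 6.17 to 6.40 in sham rats. The part of these shifts in the values of Degs2, Sphk1 and the other genes was not tested, and in bulk tissue fewer cells of a type and less RNA per cell cannot be told apart.

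Degs1, the general dihydroceramide desaturase (probe A_43_P12764, chr13:96478645-96485302), was not called in any comparison. At 6 h it read 3.71, 3.66 and 3.57 with EPO, 3.61, 3.57 and 3.72 with saline, and 3.51, 3.63 and 3.50 in sham rats. At 2 h it read 3.61, 3.75 and 3.50 with EPO, 3.73, 3.42 and 3.45 with saline, and 3.59, 3.43 and 3.46 in sham rats. The groups overlapped throughout. The largest difference from sham was 0.13 ± 0.09 (EPO at 2 h, 95% interval -0.07 to 0.32, adjusted p = 0.571), and with saline at 6 h it was 0.09 ± 0.09 (-0.11 to 0.28, adjusted p = 0.629). The log2 ratio of Degs2 to Degs1 within an array averaged -6.37 ± 0.09 with EPO, -6.20 ± 0.13 with saline and -4.53 ± 0.11 in sham rats at 6 h, which shows unequal change of both genes and no level of one against the other.

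**Figure D2:**
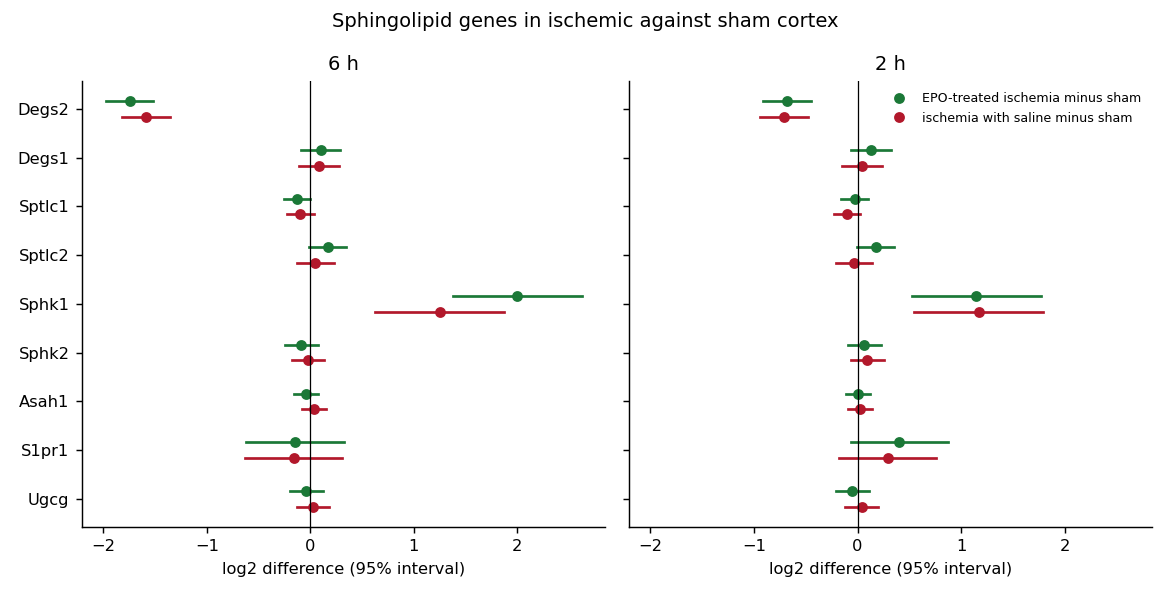
Log2 difference from sham with its 95% interval for the brightest tested probe of each member, in ischemic rats given EPO (upper point of each pair) or saline (lower point), at 6 h (left) and 2 h (right). Degs2 lies left of 0 and Sphk1 right of 0 in all 4 contrasts, while the other points lie between -0.16 and 0.41.

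The genes of serine palmitoyltransferase, the entry step, had 1 called probe of 4 against sham. That call was with EPO at 6 h, where 16.1% of all probes were called, so 1 of 4 is near that share. The brightest of 3 Sptlc1 probes (A_42_P734384, chr17:12029189-12068234) read 1.79, 1.79 and 1.78 with EPO, 1.88, 1.77 and 1.81 with saline, and 1.99, 1.92 and 1.85 in sham rats at 6 h. The EPO arrays lay below the sham arrays, a separation seen in either direction for 8870 of 28625 tested probes. The difference of -0.13 ± 0.06 did not pass (adjusted p = 0.17). The saline difference at 6 h was -0.10 ± 0.06 (95% interval -0.22 to 0.03). A second probe, A_44_P314081, was called with EPO at 6 h, at -0.23 ± 0.06 (adjusted p = 0.0292), with arrays at -0.17, -0.12 and -0.11 against 0.10, 0.15 and 0.02 in sham rats, while the third, A_44_P440870, stood at -0.06 ± 0.09. Only 1 of the 3 probes was called, so the gene's call rests on the probe chosen. At 2 h A_44_P314081 was at -0.21 ± 0.06 with saline (adjusted p = 0.177).

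The probe assigned to Sptlc2 (A_43_P17610, chr6:112679623-112762470) carries the accession of Sptlc2 but the name Pomt2 in the array file, so its gene is uncertain. It read -1.52, -1.60 and -1.80 with EPO, -1.78, -1.72 and -1.76 with saline, and -1.85, -1.75 and -1.80 in sham rats at 6 h. No contrast of it was called: with EPO it was at 0.17 ± 0.08 at 6 h (adjusted p = 0.218) and 0.18 ± 0.08 at 2 h (adjusted p = 0.421), and EPO against saline at 2 h gave 0.21 ± 0.08 (unadjusted p = 0.023, adjusted p = 1).

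Sphk1, whose product is the cytosolic kinase induced by many growth factors and cytokines, rose with ischemia at 6 h. Its probe (A_44_P381917, chr10:102257413-102263086) was well above background on every array. At 6 h the signal was -0.37, -0.62 and -1.19 in ischemic rats given EPO, -1.77, -1.56 and -1.09 in ischemic rats given saline, and -3.33, -2.31 and -2.53 in sham rats. Every ischemic array lay above every sham array, and the EPO and saline arrays overlapped. At 6 h 8870 of 28625 tested probes with EPO and 9253 with saline were without overlap with sham, in either direction. Against sham it was 2.00 ± 0.29 higher with EPO (3.99-fold, adjusted p = 0.000475) and 1.25 ± 0.29 higher with saline (2.38-fold, adjusted p = 0.0141).

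At 2 h Sphk1 read -1.17, -0.70 and -0.82 with EPO, -1.004, -0.88 and -0.73 with saline, and -1.64, -2.08 and -2.41 in sham rats. Here too no ischemic array overlapped the sham arrays. At 2 h this held, in either direction, for 5832 of 28625 tested probes with EPO and 4506 with saline. The differences, 1.15 ± 0.29 with EPO (adjusted p = 0.0822) and 1.17 ± 0.29 with saline (adjusted p = 0.0747), did not pass the test. The change of the saline difference with time was 0.08 ± 0.41 (95% interval -0.80 to 0.96, adjusted p = 0.998), so changes within that interval were not detectable.

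The spread of Sphk1 within groups (pooled SD 0.37) was wider than that of Degs2 (0.13). Without sham replicate 1 at 6 h, the array at -3.33, the saline difference at 6 h was 0.95 and missed the threshold (adjusted p = 0.0561), while both 2 h differences passed (adjusted p = 0.0386 with saline and 0.0407 with EPO). The saline call at 6 h was also lost without saline replicate 3 at 6 h (1.06, adjusted p = 0.0686), and with only the 6 arrays compared (adjusted p = 0.097). Without the 6 steep arrays the 1 remaining saline array at 6 h gave 0.86 (adjusted p = 0.267). The EPO difference at 6 h passed in all 33 alternative analyses, with adjusted p up to 0.0499. Within slides, the difference with EPO was 1.69 and 2.14 at 6 h and 1.59 at 2 h, and that with saline was 0.75 and 2.24 at 6 h and 0.63, 1.20 and 1.69 at 2 h.

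EPO against saline gave 0.75 ± 0.29 for Sphk1 at 6 h (95% interval 0.12 to 1.37), with an unadjusted p of 0.0224 and an adjusted p of 0.778, so it was not called. On slides with both groups it was 1.40, 0.94 and -0.10. At 2 h it was -0.02 ± 0.29 (-0.65 to 0.60).

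**Figure D3:**
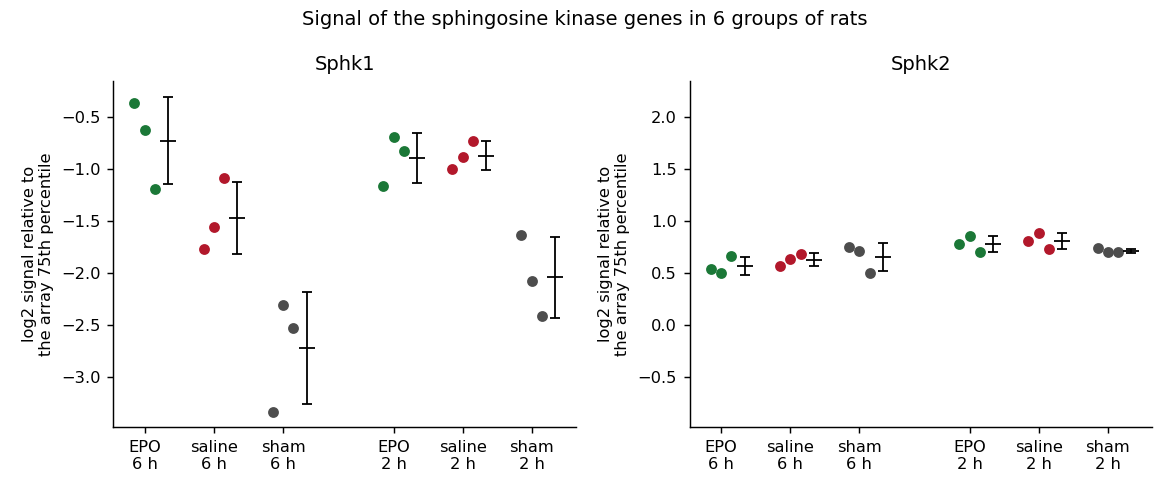
Log2 signal of Sphk1 (left) and Sphk2 (right) relative to the array's 75th percentile, by group as labelled. Points are arrays, and bars beside them are the mean ± SD of 3; both vertical axes span the same range, and Sphk1 is higher on every ischemic array than on the sham arrays of that time while Sphk2 stays between 0.50 and 0.88.

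Sphk2, the kinase of nucleus and mitochondria (probe A_44_P466271, chr1:105317332-105324985), was not called in any comparison. At 6 h it read 0.54, 0.50 and 0.67 with EPO, 0.57, 0.64 and 0.68 with saline, and 0.75, 0.71 and 0.50 in sham rats. The groups overlapped, and the differences from sham were -0.09 ± 0.07 with EPO (95% interval -0.24 to 0.07) and -0.03 ± 0.07 with saline (-0.18 to 0.13). At 2 h they were 0.07 ± 0.07 with EPO and 0.10 ± 0.07 with saline. In EPO-treated ischemia it was at -0.21 ± 0.07 at 6 h against 2 h (adjusted p = 0.0792).

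The lysosomal enzymes showed no called difference. Neither Asah1 probe (A_44_P113699 and A_43_P12798, chr16:57669927-57701349) was called in any contrast. The brighter, A_44_P113699, read 0.51, 0.52 and 0.35 with EPO, 0.57, 0.54 and 0.50 with saline, and 0.54, 0.49 and 0.47 in sham rats at 6 h, and its 6 group means spanned 0.09, the narrowest span of the 13 tested member probes. Its difference from sham was -0.04 ± 0.05 with EPO (95% interval -0.16 to 0.08) and 0.04 ± 0.05 with saline (-0.08 to 0.16) at 6 h. The only probe of Smpd1 (A_44_P137802, chr1:169304772-169308615) was left out of the test because its spot was marked as an outlier on EPO replicate 3 at 2 h. It read 4.67, 4.68 and 4.77 with EPO, 4.84, 4.68 and 4.72 with saline, and 4.86, 4.76 and 4.73 in sham rats at 6 h, and at 2 h 4.93 and 4.92 with EPO, 4.88, 4.75 and 4.78 with saline, and 4.68, 4.84 and 4.84 in sham rats. With the marked spot kept (4.63), the differences from sham were -0.07 ± 0.08 with EPO and -0.03 ± 0.08 with saline at 6 h (adjusted p = 0.706 and 0.819), and 0.04 ± 0.08 with EPO and 0.02 ± 0.08 with saline at 2 h.

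S1pr1, named Edg1 in the array file (probe A_43_P11904, chr2:206309715-206314070), was dim. It was well above background on 2 of 3 arrays with EPO, 2 of 3 with saline and 3 of 3 sham arrays at 6 h, and at 2 h on 3 arrays with EPO, 2 with saline and 0 sham arrays. At 6 h it read -4.87, -4.71 and -4.87 with EPO, -5.18, -4.20 and -5.12 with saline, and -4.95, -4.54 and -4.52 in sham rats, with overlap of all groups. At 2 h the measured means were -4.46 with EPO and -4.87 in sham rats, where the probe was not well above background on any array. Set against the sham bound the level with EPO was at least 1.075-fold higher and that with saline was not above it. The measured difference with EPO, 0.41, was not called (adjusted p = 0.493) and turned to -0.04 with normexp background correction, so S1pr1 has no settled direction at 2 h. No contrast of S1pr1 was called, and intervals as wide as -0.63 to 0.31 (saline at 6 h) leave changes of that size undetectable here.

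Ugcg, which makes glucosylceramide (chr5:78828006-78860725), had a bright probe, A_44_P172604, that read 1.80, 1.91 and 1.88 with EPO, 1.89, 1.86 and 2.03 with saline, and 2.02, 1.85 and 1.85 in sham rats at 6 h. The differences from sham were -0.04 ± 0.07 with EPO (95% interval -0.20 to 0.12) and 0.02 ± 0.07 with saline (-0.13 to 0.18). A second, dim probe, A_44_P208275, was at 0.19 ± 0.12 with EPO and 0.33 ± 0.12 with saline (adjusted p = 0.113), well above background on 2 of 3 arrays with EPO, 3 of 3 with saline and 3 of 3 sham arrays. Neither was called.

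Of the 8 tested members other than Degs2, each by its brightest probe, 1 rose (Sphk1) and 0 fell against sham at 6 h, both with EPO, where 16.1% of all probes were called, and with saline, where 11.1% were. At those shares 1 of 8 is near the background. At 2 h 0 were called, where 1.33% of all probes were with EPO and 1.24% with saline. The median difference of the 8 was -0.04 with EPO and 0.03 with saline at 6 h, and that of all tested probes was 0.003 and -0.13. These are only the members with a tested probe, and the low-signal filter kept S1pr1 through the groups in which it was bright.

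A wider list of 68 genes of the pathway had 55 genes on the array and 48 tested. In saline-treated ischemia at 6 h, 3 rose and 5 fell against sham. Relative to sham the median difference was -0.06, against -0.13 over all probes and -0.09 over the 12422 named genes by brightest probe. There 8 of 48 genes were called where 11.1% of all probes were, and of the 12422 genes 766 rose and 845 fell. With EPO at 6 h 2 rose and 11 fell, with a median of -0.09, against 16.1% of all probes called. Of the 12422 genes 1022 rose and 1341 fell with EPO, with a median of -0.01. The gene counts are the like basis, since the list too holds 1 probe per gene. At 2 h 1 gene was called with EPO (B3galt4, -0.38 ± 0.07, adjusted p = 0.00973 in limma), where 1.33% of all probes were called. With saline 0 were called, where 1.24% of all probes were. There 9 of the 48 had an unadjusted p under 0.05 in limma, against 1583 of the 12422 genes. EPO against saline called 0 of the 48 at either time, with 3 at 6 h and 1 at 2 h at an unadjusted p under 0.05. Of the 12422 genes 0 were called at either time, with 518 at 6 h and 152 at 2 h under 0.05 unadjusted.

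**Figure D4:**
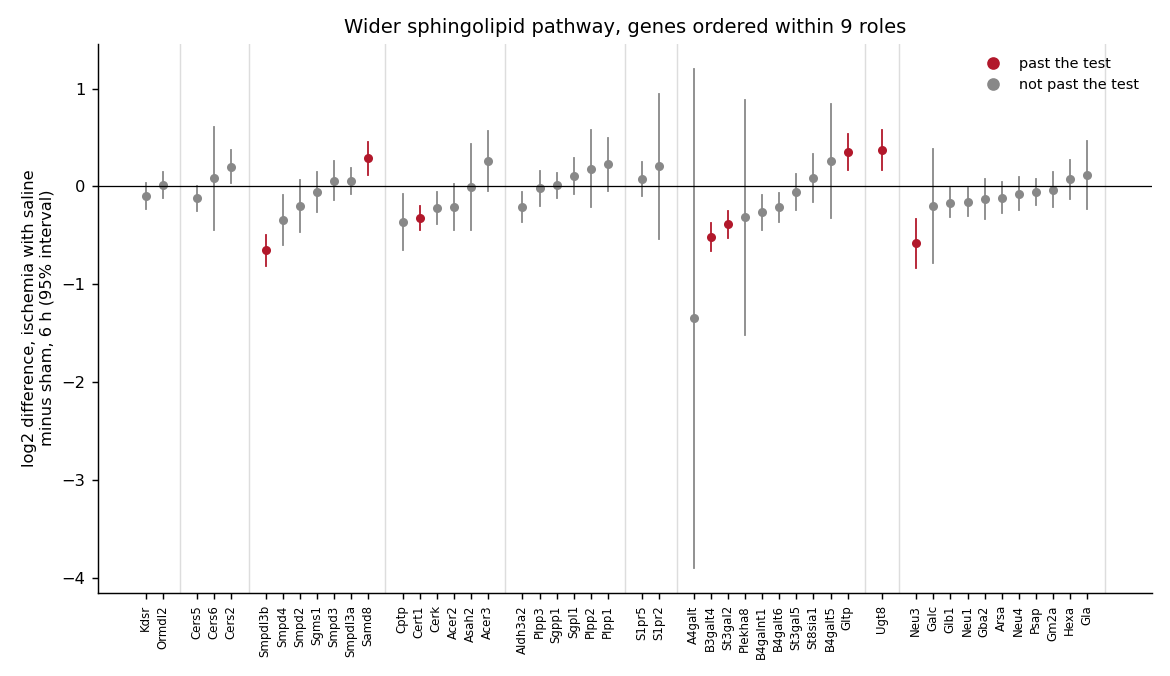
Log2 difference with its 95% interval between ischemic rats given saline and sham rats at 6 h, for the brightest tested probe of each of 48 genes. Blocks run from left to right through de novo synthesis, ceramide synthases, sphingomyelin, ceramide breakdown and transfer, sphingosine 1-phosphate breakdown, its receptors, gangliosides and globosides, myelin galactolipids and glycolipid breakdown; red points are the 3 genes that rose and the 5 that fell.

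Among the sphingomyelin genes, 1 of 7 fell and 1 rose with saline at 6 h. Over all probes 11.1% were called with saline at 6 h and 16.1% with EPO, so a single call in a block of this size is near those shares. The same shares stand beside the block counts below. Smpdl3b, a membrane-anchored relative of acid sphingomyelinase, read -0.73, -0.68 and -0.65 with EPO, -0.40, -0.59 and -0.67 with saline, and 0.07, 0.14 and 0.07 in sham rats. It lay below sham on all 6 ischemic arrays, with differences of -0.78 ± 0.07 with EPO (adjusted p = 1.53e-05) and -0.65 ± 0.07 with saline (adjusted p = 0.000107). Its sham level was itself higher at 6 h than at 2 h (0.43 ± 0.07, adjusted p = 0.0219). Samd8, which makes the ceramide phosphoethanolamine of the endoplasmic reticulum, rose with saline by 0.29 ± 0.08 (adjusted p = 0.0306) and was at 0.19 ± 0.08 with EPO (adjusted p = 0.12).

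Of 10 genes of ganglioside and globoside synthesis, 2 fell and 1 rose with saline at 6 h, where 11.1% of all probes were called. With EPO 4 fell and 1 rose, where 16.1% were called. Those that fell with EPO alone were B4galnt1 (-0.30 ± 0.08, adjusted p = 0.0253) and B4galt6 (-0.27 ± 0.07, adjusted p = 0.0185), both named after their values were seen. With saline they were at -0.26 and -0.21, not called. A dimmer B4galt6 probe was not called with EPO (-0.10, adjusted p = 0.655). B3galt4, a galactosyltransferase that extends gangliosides, read -1.73, -1.67 and -1.74 with EPO, -1.58, -1.48 and -1.57 with saline, and -0.96, -1.19 and -0.93 in sham rats. It fell, with differences of -0.68 ± 0.07 with EPO (adjusted p = 2.31e-05) and -0.52 ± 0.07 with saline (adjusted p = 0.000328). St3gal2, a sialyltransferase of complex gangliosides, fell too, at -0.37 ± 0.06 with EPO and -0.39 ± 0.06 with saline (adjusted p = 0.00145 and 0.0016). Gltp, the glycolipid transfer protein, rose by 0.33 ± 0.09 with EPO and 0.35 ± 0.09 with saline (adjusted p = 0.0197 and 0.0189), and a second probe of it was at 0.26 ± 0.07 with EPO and 0.28 ± 0.07 with saline.

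Cert1, the carrier of ceramide to the Golgi, was 1 of 6 genes of ceramide breakdown and transfer to fall with saline at 6 h, where 11.1% of all probes were called. Its probe A_44_P399459 read -0.97, -1.03 and -1.11 with EPO, -0.96, -1.01 and -1.01 with saline, and -0.65, -0.71 and -0.66 in sham rats, differences of -0.36 ± 0.06 with EPO and -0.32 ± 0.06 with saline (adjusted p = 0.000789 and 0.0026). A dimmer probe of Cert1, A_44_P255449, stood at 0.0036 ± 0.13 with EPO and -0.04 ± 0.13 with saline, so its probes disagreed. In glycolipid breakdown, 1 of 11 genes fell with saline: the membrane sialidase Neu3, at -0.58 ± 0.11 (adjusted p = 0.00587), against -0.55 ± 0.11 with EPO. With EPO, where 16.1% of all probes were called, 3 of these 11 fell by their brightest probe. The others were the lysosomal beta-galactosidase Glb1 (-0.24 ± 0.07, adjusted p = 0.0298) and the lysosomal sialidase Neu1 (-0.21 ± 0.07, adjusted p = 0.048). A dimmer Neu1 probe was not called with EPO (-0.12 ± 0.06, adjusted p = 0.217), so the Neu1 call rests on the probe chosen. Of the 6 genes of ceramide breakdown and transfer 2 fell with EPO, Cert1 and Cptp, a carrier of ceramide 1-phosphate (-0.55 ± 0.13, adjusted p = 0.0116). With saline Glb1 was at -0.16, Neu1 at -0.16 and Cptp at -0.36, none called, and these 3 and Aldh3a2 were named after their values were seen. Ugt8, the only tested gene of myelin galactolipid synthesis, rose by 0.35 ± 0.09 with EPO and 0.37 ± 0.09 with saline (adjusted p = 0.0225 and 0.0229). The summed level of 6 oligodendrocyte markers was 7.96 to 8.04 with EPO, 7.90 to 8.01 with saline and 7.76 to 7.91 in sham rats at 6 h, with 0 called, and its part in the Ugt8 values was not tested.

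The other blocks held no call with saline at 6 h: 0 of 2 other genes of de novo synthesis (median -0.04), 0 of 3 ceramide synthases (median 0.08), 0 of 6 genes of sphingosine 1-phosphate breakdown and export (median 0.06) and 0 of 2 further receptors (median 0.14). With EPO at 6 h 1 of the 6 genes of sphingosine 1-phosphate breakdown and export fell: Aldh3a2, a fatty aldehyde dehydrogenase, at -0.28 ± 0.07 (adjusted p = 0.0178), against -0.21 ± 0.07 with saline (adjusted p = 0.0855). The 8 calls with saline at 6 h depended on the arrays used: 5 genes were called with only the 6 arrays compared, without sham replicate 2 at 6 h or without saline replicate 3 at 6 h. Without the 6 steep arrays, with 1 saline array left, 0 were called, and Smpdl3b was at -0.70 (adjusted p = 0.0509). Single calls were lost with other processing too. Neu3 missed the threshold with normexp background correction (-0.36, adjusted p = 0.0829), with quantile normalization (-0.34, adjusted p = 0.6) and on the authors' deposited values (-0.54, adjusted p = 0.123). Samd8 missed it with normexp (0.23, adjusted p = 0.147) and passed in 24 of 33 alternatives, and Cert1 missed it on the authors' deposited values (-0.28, adjusted p = 0.327) and as the mean of its probes (-0.18, adjusted p = 0.177).

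Among 12390 genes ranked by Pearson correlation with Degs2 over the 18 arrays, members left out, Tmem204 came first (r = 0.97), followed by Cert1 (0.95), Slc19a1 (0.94), Engase (0.94) and Gemin4 (0.93). The lowest were Cebpd (-0.98), Gadd45b (-0.98), Rassf1 (-0.98), Lyn (-0.97) and Smad1 (-0.97). The arrays share their groups, and r after subtracting group means was lower in size for all 10, from -0.67 (Rassf1) to 0.61 (Gemin4), with 0.30 for Tmem204 and -0.49 for Cebpd. It was 0.03 for Engase and turned to -0.27 for Slc19a1. Tmem204 differed from sham at 6 h by -1.02 with EPO and -1.07 with saline, and at 2 h by -0.47 with EPO and -0.60 with saline. Cebpd differed by 2.37 with EPO and 1.91 with saline at 6 h, and by 1.06 with EPO and 1.21 with saline at 2 h.

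**Figure D5:**
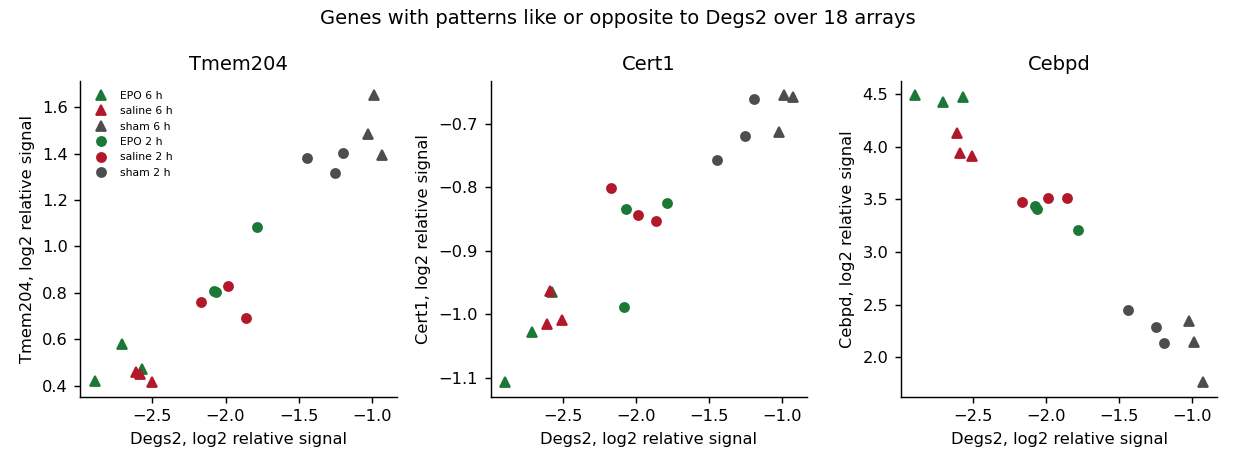
Log2 signal of Tmem204, Cert1 and Cebpd (vertical axes) against that of Degs2 (horizontal axes) over 18 arrays, relative to the array's 75th percentile. Triangles are 6 h, circles 2 h, and colours give EPO, saline and sham; Tmem204 and Cert1 rise with Degs2 (r = 0.97 and 0.95) and Cebpd runs against it (r = -0.98).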

How the data were processed

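Cy3-labelled RNA was measured on 18 Agilent 1-colour arrays. Per the file headers and the submitters' processing notes, Agilent Feature Extraction 9.1.1.1 gave the deposited processed signal, a background-subtracted intensity per spot, with quality calls of 0 or 1. The authors' deposited values are on a log2 scale, which match the processed signal averaged per probe on that scale to within 5.3e-14, so that neither arrays nor genes were scaled or centred.

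Control spots (1639) and outlier-marked spots were left out, spots of a probe were averaged on the log2 scale, and the 75th percentile over the 43379 non-control spots was taken off each array. A probe was tested where 1 or more groups had it well above background on all arrays, and 345 probes without a usable spot on some array were not. Probes were named by the accession (10735), symbol (5571) or synonym (3729) of RefSeq's rat annotation, GRCr8, and 20977 kept their file name or none. A gene was represented by its brightest tested probe. For S1pr1 at 2 h, the bound sets the EPO mean against, per sham array, the higher of the probe's signal and the lowest signal well above background.

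Limma 3.58.1 (R 4.3.3, data.table, version 1.17.8, statmod 1.5.0) fitted group means over all 18 arrays with 12 residual degrees of freedom, two-sided, with Benjamini-Hochberg adjustment over 28625 probes. Figures were drawn with matplotlib 3.10.9 (python 3.11.15), and the fit was tested on simulated data. The members and lists were chosen with earlier results of these data known. Named were all members, the list genes called in ischemia with saline against sham (at most 8 per time), and the 5 genes most and 5 least correlated with Degs2. Alternatives changed background correction, scaling, probe filter, slide, spike-in slope, variance model, probe summary, pairing and each array. Same-numbered samples deviated together (every r over 0.1) only for EPO and saline at 2 h (r = 0.89, 0.65 and 0.64). An alternative fit therefore treated those numbers as pairs there. In each of these groups replicate 1 was the only steep array (spike-in slope 0.94), so array quality and pairing cannot be told apart. The values reported come from the fit without a block, and the block changed no call among the 75 results followed through the alternatives. Over all probes it did change calls. With saline against sham at 6 h, 1245 were called higher and 1548 lower with the block, against 1372 and 1792 without.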

Additional observations from a re-analysis of the deposited data

Results flagged for a closer look

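The difference of Degs2 between saline-treated ischemia and sham was larger in size at 6 h (-1.59) than at 2 h (-0.71), and the change between the times was -0.88 ± 0.15. It is listed because the rule for listing was an adjusted p under 0.05 for this change in limma, which Degs2 met. The values are those by which the gene was chosen, so meeting that rule is no test and the change is a description. In sham rats alone Degs2 was 0.32 higher at 6 h than at 2 h.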

How the results depend on the processing

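Across 34 alternatives, 18 of which leave out 1 array each, 2334 of 2480 values over 75 results kept their direction and side of the threshold or stayed within the replicate spread. Counts of calls were scored as kept when they stayed near their first value. Leaving out an array of neither group compared, the replicate block and the variance trend cannot change a difference itself. Part of this agreement was therefore fixed in advance. Sign changes of differences that were never called made up 73 values in 25 results, and the cause of the changes below was not tested. Leaving out the 6 steep arrays leaves 1 saline array at 6 h, assumed to vary like the other groups, so counts of 0 there reflect the lone array too. The Degs2 difference from sham with saline at 6 h was -1.22 with normexp background correction and -1.43 with quantile normalization. With EPO at 6 h it was -1.37 and -1.92, and with EPO at 2 h it was -0.54 with quantile normalization. The difference of EPO from saline in Degs2 at 2 h turned to -0.0068 on the authors' value table and -0.0012 without the 6 steep arrays, and leaving out single arrays gave -0.0668 to 0.10, turning it without saline replicate 1 (-0.05) or EPO replicate 3 (-0.0668) at 2 h. The Degs2 difference of 6 h from 2 h with EPO lost its call on the authors' value table (-0.66, adjusted p = 0.0574) and with only the compared arrays (-0.75, adjusted p = 0.0886).

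Of the 8 members other than Degs2, 1 was called with saline at 2 h under quantile normalization, slide as a random block, slope class as a block and a variance trend, and 0 to 1 without single arrays. With EPO at 2 h, 1 was called under quantile normalization and the slope block, and 0 to 1 without single arrays. With saline at 6 h, 0 were called without the steep arrays and with only the compared arrays, and 0 to 1 without single arrays. For a change of the ischemic difference with time, 0 of the 8 members other than Degs2 were called, where 1.43% of all probes were. Degs2 was chosen by the values that make up this change, so its side of the threshold there is no test. Among the alternatives that kept more than 1 array in each group, that side differed under quantile normalization and on the authors' value table. The fit without the steep arrays left 1 saline array at 6 h and is set apart here. Of the wider list with saline, 1 gene was called at 2 h with slide as a random block, and 0 to 1 without single arrays. At 6 h, 0 were called without the steep arrays, 5 with only the compared arrays, and 5 to 10 without single arrays.

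No call among the 75 results changed with a replicate block over all arrays. Nor did one change with a block on the 6 EPO and saline arrays at 2 h alone. Degs2 at 6 h against 2 h with EPO stayed at -0.75 (adjusted p = 0.00211), and Sphk1 with saline at 6 h at 1.25 (adjusted p = 0.0251), both over all arrays in limma. With same-numbered samples treated as pairs at 2 h, which the labels do not state, EPO minus saline was 0.03 ± 0.08 for Degs2 (adjusted p = 1 in limma). Higher probes made up 43.4% of all called with saline at 6 h, against 61.6% with normexp, 56.2% with quantile normalization, 56.7% with the percentile over averaged probes, 67.1% on the authors' value table and 82.2% without the steep arrays (1 saline array). The 2 h block, the percentile over averaged probes and the keeping of outlier spots were chosen after seeing the data. S1pr1 and the dim Ugcg probe lay near background, which limits what their differences can show.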
